A study of Homo sapiens with 12 samples.

Results

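Untreated HCT-116 cells, the baseline of a study of DNA damage and the cGAS-STING pathway, were described from 3 of its 12 RNA-seq libraries. They are the samples whose titles carry C-1 to C-3, whose genotype label is wild type and whose treatment label is untreated, here called libraries 1, 2 and 3. HCT-116 is an established human colon cancer line of epithelial origin. A treatment text shared by every sample of the series speaks of CPT-11 (irinotecan) for all cells, which conflicts with the untreated label of these 3, and the sample's own label was followed. Total RNA was isolated with Trizol, and 1 µg of it went into each library by a NEBNext Ultra kit. The labels do not state whether the 3 libraries stem from separate cultures, so the spread between them may be technical. Levels are in FPKM (fragments assigned to a gene, divided by its exonic length and the library's depth), given for each library or as mean ± SD, n = 3, with no comparison to treated cells.

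A tumour line keeps part of the program of its tissue. In the intestine, crypt stem cells respond to Wnt signals, and factors such as CDX2 set intestinal identity. The descendants of the stem cells become absorptive enterocytes or secretory goblet, Paneth and enteroendocrine cells. DNA lesions are handled by separate repair pathways, each with its own sensors and enzymes. Cytosolic DNA is bound by cGAS, whose product activates STING (TMEM173 in the deposited names), the kinase TBK1 and the factor IRF3, which together switch on interferon genes.

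The 3 libraries held 14715553, 16224271 and 15069251 reads assigned to genes. Protein-coding genes took 96.9%, 96.9% and 96.8% of them. Of 19951 protein-coding genes, 11101 had a mean of at least 1 FPKM, which is 55.6% and is the background for each list below. These are called expressed here. Another 25.9% (5167 genes) had 3 reads or fewer in every library and are called undetected, the background for undetected counts below. When 0 reads are seen, the expected count may still be as high as about 3 (95% limit). Genes with 1 to 3 reads fall under the same name and may be expressed at a low level. This limit covers counting error only. For a gene of 1 kb, 3 reads amounted to 0.189 to 0.207 FPKM. Only 271 genes reached 100 FPKM, and they held 26.7%, 26.8% and 26.7% of all reads.

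Between libraries, log2(FPKM + 1) of the 11101 genes correlated with r = 0.994 (libraries 1 and 2), 0.990 (1 and 3) and 0.996 (2 and 3), across genes, which are not independent replicates. Library 1 stood slightly apart, mainly from library 3. It differed by more than 1.5-fold from library 3 in 298 genes (2.68%) and from library 2 in 180 (1.62%). Libraries 2 and 3 differed so in 124 (1.12%). When protein-coding genes of at least 10 FPKM were divided into 4 equal classes by exonic length, the median log2 ratio of library 1 to the mean of the others was 0.08 in the class of shortest genes and -0.06 in that of the longest. Among genes above 10 FPKM, FTH1, the heavy chain of ferritin, varied most of the protein-coding genes, at 413, 235 and 191 FPKM. Its exonic bases are 62.4% shared, and per kilobase of unshared exon it measured 745 FPKM in place of a mean of 280.0. The 10 features of any kind with the widest relative spread were all small RNAs, a mitochondrial tRNA or pseudogenes, MIR4740 (16, 4 and 8 reads), RPL14P1 and MT-TY first.

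Mitochondrial messages led the transcriptome. All 13 mRNAs of the mitochondrial genome measured 1302 FPKM or more in every library, and MT-CO2, a subunit of cytochrome c oxidase, was the highest at 12057, 14311 and 14332. Genes of the mitochondrial chromosome took 6.58%, 7.05% and 7.29% of reads, the lowest share in library 1.

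Among nuclear protein-coding genes the highest was FTL, the ferritin light chain that stores iron (ENSG00000087086, chromosome 19, 48965301 to 48966878 on GRCh38). It measured 2219, 2007 and 1826 FPKM. HSP90AB1, a cytosolic chaperone, followed at 1820.3, 1915 and 1993. TMSB10, which binds actin monomers, stood at 1914, 1545 and 1540.2, with library 1 above both others. Their libraries overlapped, so these genes cannot be put in order beyond their spread. EEF1A1, the elongation factor that delivers tRNA to the ribosome, was the most even of them at 1616 ± 23.4. ACTG1, cytoplasmic gamma-actin, was at 1521 ± 53.6. After ACTG1 the levels dropped to RPS2, a small ribosomal subunit protein, at 1067 ± 76.6, with no overlap between the libraries of these neighbours. RPS2 shares 25.6% of its exonic bases with other genes. Per kilobase of unshared exon it measured 1434.5 FPKM against 1521 for ACTG1, so the size of this drop depends on exon sharing. The other highest genes had varied roles. HSP90AA1 (1033 ± 93.8) and HSPA8 (565 ± 35.0) are chaperones, and GAPDH (965 ± 31.0) is a glycolytic enzyme. EEF2 (849 ± 49.4) and PABPC1 (546 ± 12.1) act in translation. HMGA1, an architectural chromatin protein that fetal and tumour cells make, measured 683, 622 and 567 FPKM. PTMA (prothymosin alpha), an acidic nuclear protein, was at 596 ± 28.0 and LGALS1, a galectin, at 573 ± 44.9. Ribosomal protein genes made up 6 of the 20. For 15 of the 19 pairs of neighbours in this order the libraries overlapped.

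**Figure D1:**
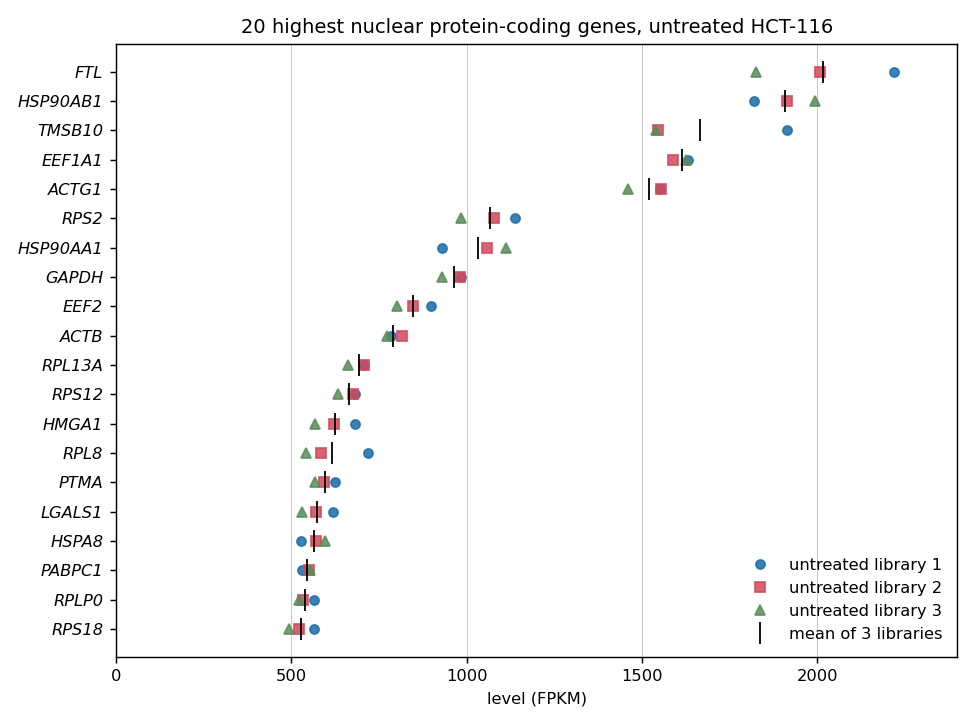
Level in FPKM (linear axis from 0) of the 20 highest nuclear protein-coding genes, with a point for each of the 3 untreated libraries and a bar at their mean. FTL, HSP90AB1, TMSB10, EEF1A1 and ACTG1 form a group at 1459 FPKM or above, and the remaining 15 genes lie at 1138 FPKM or below. The gap narrows per kilobase of unshared exon, where RPS2 measured 1434.5 FPKM.

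Ribosomal proteins as a list were all expressed, 79 of 79 against 55.6% of protein-coding genes, with a median of 147 FPKM. Their genes took 5.20%, 4.94% and 4.71% of reads, highest in library 1. RPL22 was below its paralog RPL22L1, which took 75.2% ± 0.974 of their summed level (66.2, 81.4 and 77.8 FPKM against 23.2, 25.8 and 25.1 for RPL22). RPL39L had no value above 0 beside RPL39 at 54.2 FPKM. Outside the protein-coding genes, MT-RNR2 and MT-RNR1, the ribosomal RNAs of the mitochondrion, were among the 5 highest of at least 200 bases. The other members of that set, MTATP6P1, RPS28P7 and RPS2P5, are pseudogenes, near copies of highly expressed genes. No source used here says how reads with several matches were counted, and these levels are uncertain.

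Expression at both ends of the range was set beside the promoter sequence. RefSeq windows from 250 bases before to 50 after the start (GRCh38.p14) could be matched to 14886 of 19951 protein-coding genes, using the start nearest to the annotated gene end. Undetected genes had a median of 6 CG dinucleotides in 300 bases (quartiles 2 and 18). Genes at 1 to 10 FPKM had 26, at 10 to 100 FPKM 28 and at 100 FPKM or above 27. A CG-rich window, taken as 20 CG or more, was present in 75.2% of expressed genes and in 22.8% of undetected genes (779 of 3420). The letters TATAAA, on either strand, occurred in 19.7% of undetected genes, 4.83% of genes at 1 to 10 FPKM, 4.61% at 10 to 100 and 14.1% at 100 or above, against 9.51% of all windows. GGGCGG, which holds a CG itself, occurred in 31.9% of windows of undetected genes and 76.1% of those at 100 FPKM or above, against 59.7% of all. These counts are descriptions over genes, and DNA methylation was not measured in these libraries.

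The 100 bases before the RefSeq start of 9 genes show the range, with each CG in capitals. The first 4 genes were high: the elongation factor EEF1A1 (chr6:73521033-73521132, minus strand), the Ku70 gene XRCC6 (chr22:41621195-41621294, plus), the irinotecan target TOP1 (chr20:41028722-41028821, plus) and the receptor MET (chr7:116672096-116672195, plus).
EEF1A1: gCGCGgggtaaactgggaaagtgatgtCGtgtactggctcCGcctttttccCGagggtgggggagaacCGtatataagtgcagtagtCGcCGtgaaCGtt
XRCC6: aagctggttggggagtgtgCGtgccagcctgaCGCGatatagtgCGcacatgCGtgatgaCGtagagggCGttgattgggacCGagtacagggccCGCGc
TOP1: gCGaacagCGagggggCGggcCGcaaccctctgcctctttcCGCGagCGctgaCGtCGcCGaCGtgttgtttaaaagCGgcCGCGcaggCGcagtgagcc
MET: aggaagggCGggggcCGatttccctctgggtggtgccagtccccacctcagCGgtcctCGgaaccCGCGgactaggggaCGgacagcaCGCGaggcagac
The next 3 had 0 reads in all libraries, and their windows hold 18, 27 and 28 CG in 300 bases: SLFN11 (chr17:35373622-35373721, minus), TGFBI (chr5:136028888-136028987, plus) and SMOC2 (chr6:168441084-168441183, plus). The window of SLFN11 is under the limit of 20 for a CG-rich window, and those of TGFBI and SMOC2 are above it.
SLFN11: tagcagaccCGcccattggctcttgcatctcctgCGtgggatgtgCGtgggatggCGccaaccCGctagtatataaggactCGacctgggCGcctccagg
TGFBI: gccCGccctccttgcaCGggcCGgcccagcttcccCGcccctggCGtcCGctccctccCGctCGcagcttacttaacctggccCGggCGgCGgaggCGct
SMOC2: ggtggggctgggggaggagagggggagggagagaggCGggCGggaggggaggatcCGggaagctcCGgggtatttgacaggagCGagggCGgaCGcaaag
The last pair, the enterocyte genes CEACAM5 (chr19:41708526-41708625, plus) and SI (chr3:165078497-165078596, minus), also had 0 reads, and their windows hold 2 and 0 CG in 300 bases.
CEACAM5: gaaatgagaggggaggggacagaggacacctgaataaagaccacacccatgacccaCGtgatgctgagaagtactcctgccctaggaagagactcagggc
SI: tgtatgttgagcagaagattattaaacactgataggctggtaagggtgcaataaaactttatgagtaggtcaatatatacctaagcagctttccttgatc

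Exon sharing between genes moved with the level and touches several lists below. A base was counted as shared when it lies in an exon of another gene of the annotation on either strand. Of 11097 protein-coding genes with no shared base, 51.6% were expressed, and of 6697 with up to 25% shared, 69.9% were. The share fell to 28.4% of 401 genes with above 50% to 75% shared, 5.31% of 207 with above 75% to 90% and 0.469% of 213 with above 90%. Of 312 genes whose exons are shared in full, 0 were expressed and 295 had 0 reads in every library, with at most 6 reads summed over the 3. Genes that overlap others only on the opposite strand showed the same order, from 51.6% with none shared to 44.9% of 89 with above 50% to 75% and 0 of 17 shared in full. featureCounts, which the submitters' processing notes name, by default assigns no read that overlaps exons of several genes, and no source used here gives its settings in this study. A low value of a gene with many shared bases is therefore not read as absence. The part of read assignment in single genes was not tested.

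**Figure D2:**
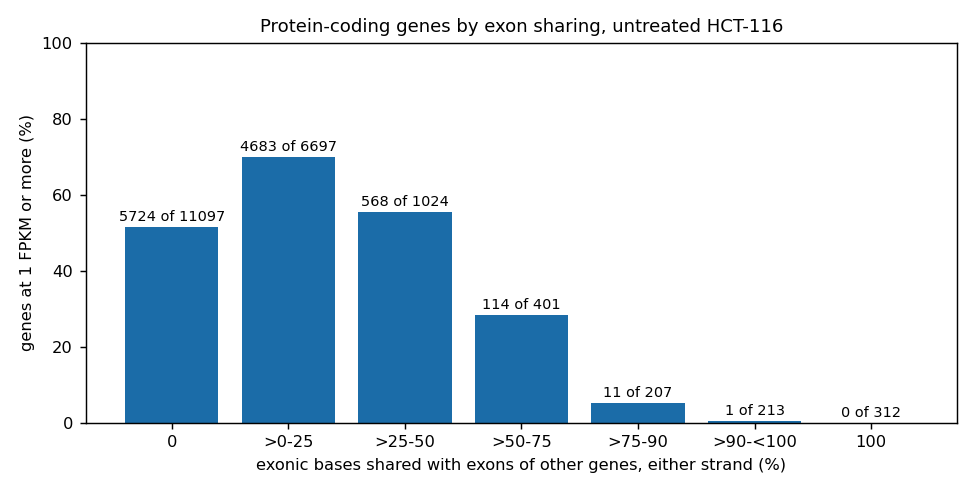
Share of protein-coding genes with a mean of at least 1 FPKM (vertical axis, percent, bars from 0) by the percentage of their exonic bases that lie in exons of other genes on either strand, with the numbers above the bars. The share is 69.9% at up to 25% shared and 0 of 312 where all bases are shared.

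Across 33 lists of 863 distinct genes, 547 were expressed and 166 were undetected, beside 55.6% and 25.9% of all protein-coding genes. Of the 166 undetected genes, 11 have at least 50% of their exonic bases shared. The lists differ widely, from repair pathways with nearly every member expressed to differentiation markers with nearly none.

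**Figure D3:**
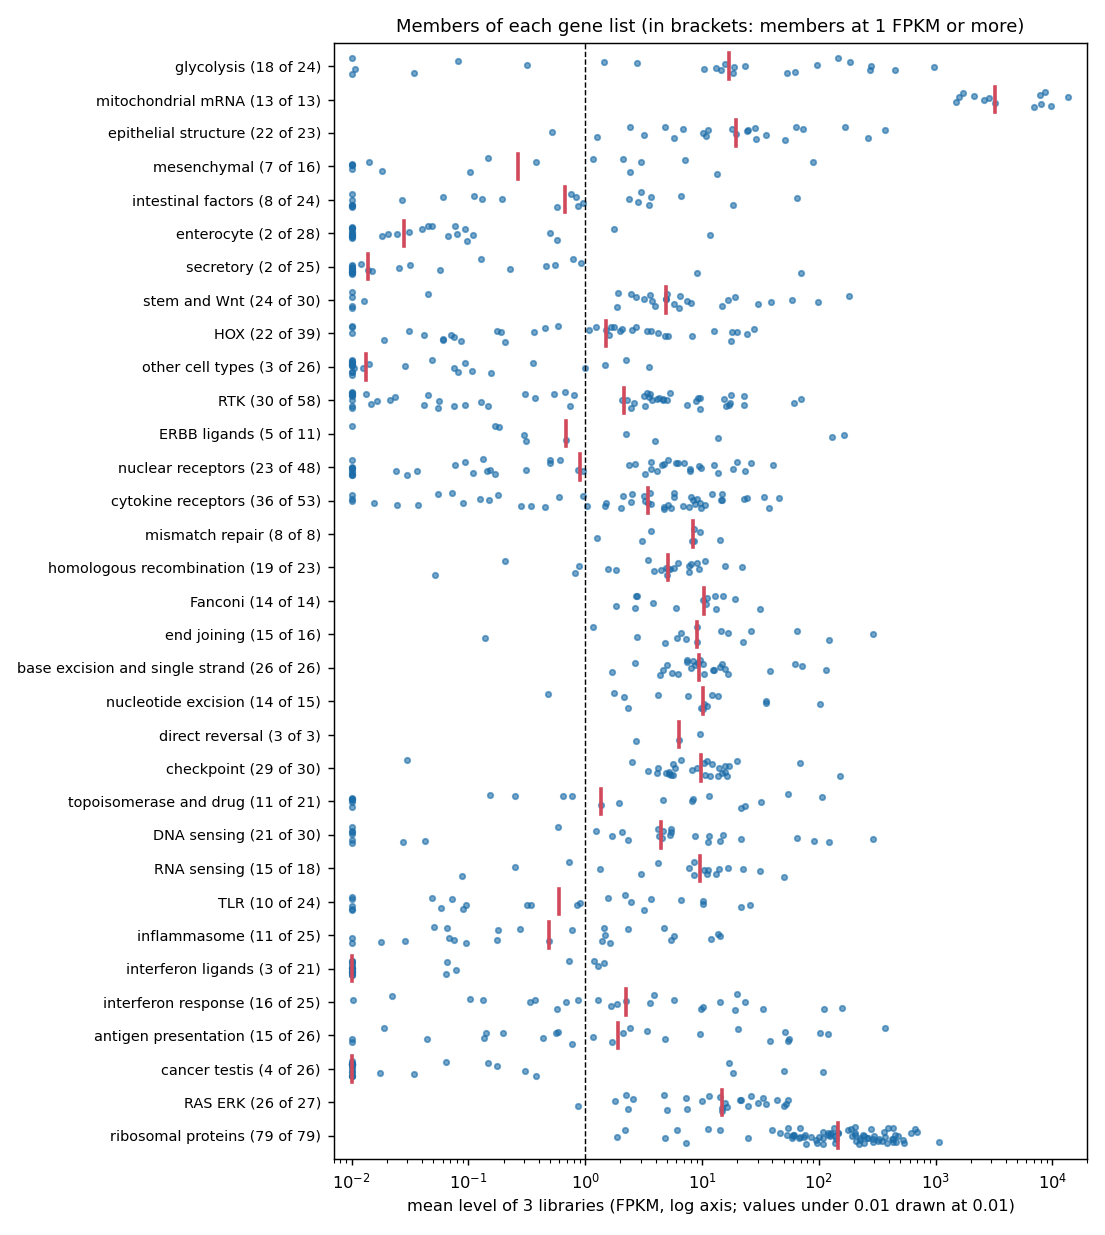
Mean level of 3 untreated libraries (FPKM, log axis) of each member of the 33 gene lists, with a red bar at the list's median, a dashed line at 1 FPKM and the number of expressed members in brackets. Repair and RAS-ERK lists lie almost wholly above the line, and enterocyte, secretory, interferon ligand and cancer-testis lists almost wholly below it.

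The labelled cell type was checked against its markers. In bulk RNA, fewer cells of a type and less RNA per cell cannot be told apart. Simple epithelial structure was present: 22 of 23 genes were expressed, against 55.6% of all protein-coding genes, with a median of 19.7 FPKM against 1.90. KRT19 (394, 375 and 348 FPKM), KRT8 (282, 258 and 256) and KRT18 (180, 166 and 159) encode the keratins of simple epithelia. EPCAM, an epithelial adhesion molecule, was at 72.7 ± 1.96 and JUP, a junction plaque protein, at 64.1 ± 4.45. OVOL2, a repressor of mesenchymal genes, was the member under 1 FPKM, at 0.524 ± 0.238. Mesenchymal genes were mixed, with 7 of 16 expressed. S100A4, a calcium-binding protein, was at 88.6 ± 7.16, ITGA5, a fibronectin receptor chain, at 13.5 ± 0.627 and SNAI1, a repressor of epithelial genes, at 7.18 ± 0.302. VIM, the mesenchymal filament protein, measured 2.10, 2.47 and 2.71 FPKM. CDH11, TWIST2 and TGFBI had 0 reads, and CDH2 and PRRX1 were also undetected. Markers of other cell types were nearly absent, with 3 of 26 expressed: COL1A1 at 3.52, DES at 2.24 and PMEL at 1.48 FPKM. The defining genes DCN, LUM, CD3E, MS4A1 and HBB had 0 reads, as did CD68, whose exons are 85.8% shared. The list summed to 0.00466% to 0.00591% of reads, most in library 1.

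Intestinal identity genes were expressed in part, 8 of 24 against the background of 55.6%. This contrast depends on the threshold: at 0.5 FPKM 13 of 24 were expressed, beside 11988 of 19951 protein-coding genes. SOX9, a factor of crypt progenitors, was the highest at 69.6, 64.9 and 61.2 FPKM. KLF5, which drives crypt proliferation, followed at 18.6 ± 0.659, and its relative KLF4, linked to differentiation, at 6.63 ± 0.891. CDX2, a central intestinal homeobox factor, measured 4.09, 3.03 and 3.37 FPKM. Its paralog CDX1 had 0 reads, and so had GATA4, GATA5, NEUROG3 and PROX1. The level of CDX2 was low but above the read limit in each library (0.0503 FPKM for 3 reads), whereas CDX1 was not detected.

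Markers of differentiated intestinal cells, not limited to those of the colon, were nearly all under 1 FPKM. Of 28 enterocyte genes, 2 were expressed and 16 undetected, against 55.6% and 25.9% of all protein-coding genes. CA2, a carbonic anhydrase, measured 12.7, 11.9 and 10.7 FPKM, and the protocadherin CDHR5 1.87, 1.74 and 1.63. SI and ALPI, brush border enzymes, FABP1 and FABP2, which carry fatty acids, and CEACAM5, CEACAM6 and CEACAM7 had 0 reads. Secretory genes gave the same count, 2 of 25 expressed and 16 undetected. VGF, a neuroendocrine granule protein, measured 83.5, 70.2 and 57.9 FPKM, highest in library 1, and SCG2, a granin, 8.92, 9.21 and 8.82. MUC2, the main goblet mucin, had 1, 0 and 0 reads. TFF1, TFF2, TFF3 and the Paneth defensins DEFA5 and DEFA6 had 0. Both expressed genes thus belong to the enteroendocrine part of the list, while CHGA, a defining gene of that cell type, had 4, 6 and 8 reads.

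Of the 30 Wnt pathway and stem cell genes 24 were expressed, with a median of 4.89 FPKM. CCND1, the cyclin D that starts the cell cycle, was at 181, 184 and 180 FPKM and took 96.2% ± 0.412 of the summed level of the cyclin D genes, with CCND2 at 0 reads. MYC, a transcription factor of cell growth among the Wnt targets, was at 98.3 ± 6.08, CD44 at 58.6 ± 3.07, CTNNB1 (beta-catenin) at 39.1 ± 1.02 and its partner TCF7L2 at 30.0 ± 0.522. Genes linked to stem cells lay on both sides, with BMI1 at 14.9 ± 0.325 and MSI1 at 7.46 ± 1.34 FPKM among the expressed, and LGR5, OLFM4, SMOC2 and ASCL2, markers of crypt base cells, among the remaining 6. LGR5, an R-spondin receptor, had 1 read in each library. OLFM4 and SMOC2 had 0 reads, as did the Wnt target APCDD1 and the beta-catenin partner LEF1. ASCL2, which controls the stem cell state, had 0, 4 and 0 reads. None of these 6 shares 50% or more of its exonic bases with other genes.

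HOX genes, which record position along the body axis, were highest in the B cluster. Of 39 genes 22 were expressed, close to the background of 55.6%. Cluster B had 8 of 10 expressed and summed to 125, 114 and 112 FPKM, cluster A 8 of 11 and 38.1 to 40.7 FPKM, cluster C 5 of 9 and at most 12.9 FPKM. Cluster D had 1 of 9, HOXD8 at 1.77 ± 0.471, and summed to 1.75 to 2.66 FPKM. HOXB7 was the highest at 29.1, 26.8 and 27.6 FPKM and HOXB8 followed at 28.1, 22.1 and 22.8, with overlapping libraries. HOXA9 was at 19.4, 19.8 and 20.8 FPKM, HOXB6 at 18.1 ± 0.558 and HOXB9 at 16.6, 19.2 and 17.6. HOXB1, HOXC12 and HOXD1 had 0 reads. For the low HOXD genes, HOXD1, HOXD3 and HOXD4 have at least 50% of their exons shared with neighbours.

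**Figure D4:**
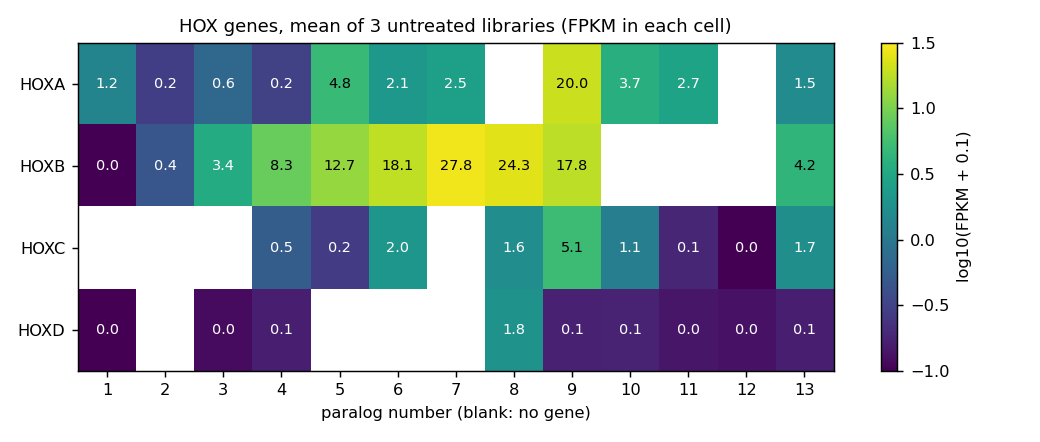
Mean level in FPKM (number in each cell) of the 39 HOX genes by cluster (rows) and paralog number (columns), coloured by log10(FPKM + 0.1), with blanks where no gene exists. HOXB4 to HOXB9 form the highest run, up to 27.8 FPKM, HOXA9 is the highest outside cluster B, and HOXD8 is the only HOXD gene above 1 FPKM.

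Receptor tyrosine kinases were expressed at about the background rate, 30 of 58, with a median of 2.16 FPKM. MET, the receptor of hepatocyte growth factor, led at 64.5, 68.3 and 76.6 FPKM. EPHA2, an ephrin receptor, followed at 65.6, 60.2 and 58.9, overlapping MET. The collagen receptor DDR1 (23.1 ± 2.92), PTK7 (22.8 ± 1.89) and FGFR4 (17.8 ± 1.72) came next, and EGFR was at 17.2 ± 0.971. KIT had 0, 0 and 1 reads and PDGFRA 1, 0 and 0, while 5 others, EPHA3, EPHA5, EPHA6, EPHA7 and ROS1, had 0. Of 11 ligands of the EGFR family 5 were expressed, and AREG and EREG stood above EGFR in every library. AREG (amphiregulin) measured 164, 162 and 164 FPKM, EREG (epiregulin) 123, 131 and 138, and TGFA 13.3, 14.6 and 13.5. NRG3 had 0 reads.

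Downstream of these receptors, 26 of 27 RAS and ERK pathway genes were expressed, with a median of 14.8 FPKM. The highest mean was that of PTPN11, the gene of the phosphatase SHP2 (chromosome 12, 112418351 to 112509913), at 53.3, 53.8 and 55.4 FPKM. GRB2, its adaptor partner, overlapped it at 54.6, 53.1 and 49.3. DUSP6, an ERK phosphatase with 40.5% of its exonic bases shared, was below PTPN11 at 48.5 to 51.7 FPKM but above it per kilobase of unshared exon, at 84.1 against 55.1. Among the small GTPases, NRAS measured 32.7, 37.4 and 35.7 FPKM and HRAS 30.3, 24.5 and 24.7, with no overlap between their libraries.

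Of 48 nuclear receptors 23 were expressed, beside the background of 55.6%. The orphan receptors NR2F2 (40.5 ± 1.88), NR2F6 (26.0 ± 3.03), NR2F1 (23.2 ± 1.47) and ESRRA (20.1 ± 2.38) were highest, followed by the clock repressor NR1D2 (18.5 ± 1.11). PGR, the progesterone receptor, had 0 reads. Of 53 cytokine receptors 36 were expressed. TNFRSF12A, the TWEAK receptor, measured 54.2, 44.7 and 37.8 FPKM, and the TRAIL receptor TNFRSF10B 39.3, 35.7 and 36.9. IFNAR1, one chain of the type I interferon receptor, was at 8.79, 9.11 and 9.52. Its partner IFNAR2 was at 0.270, 0.342 and 0.235, but 83.2% of its exonic bases are shared, and per kilobase of unshared exon it measured 1.68.

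DNA repair genes were nearly all expressed. In 7 repair lists with 105 genes, 99 were expressed (94.3%, against 55.6% of protein-coding genes) and 39 reached 10 FPKM. The median was 8.24 FPKM. Among those under 1 FPKM, named after their values were seen, were RAD50, RAD51B, DMC1, NHEJ1 and ERCC5. At least 50% of the exonic bases are shared in RAD50 (79.7%), NHEJ1 (65.4%) and ERCC5 (63.2%). Per kilobase of unshared exon RAD50 measured 4.38 FPKM, whereas NHEJ1 stayed at 0.398. DMC1, a recombinase of meiosis, had 4, 13 and 16 reads with no exon shared.

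Mismatch repair, which removes mispaired bases, had 8 of 8 genes expressed. The exonuclease EXO1 was highest at 13.6, 14.2 and 15.4 FPKM, and the recognition protein MSH6 stood at 9.69 ± 0.360. The endonuclease subunit PMS2 and its relative PMS1 were at 8.58 ± 0.223 and 8.24 ± 0.680. MSH3 was the lowest at 1.26, 1.49 and 1.04. A level of message says nothing of whether its sequence codes for a working protein, and variants were not read here.

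Among genes of double-strand break repair, the highest levels were those of end joining genes. Which pathway the cells use was not tested. XRCC6 and XRCC5, the Ku70 and Ku80 subunits that bind DNA ends, measured 294, 288 and 295 FPKM and 114, 124 and 132. PRKDC, the kinase they recruit, was at 60.7, 65.6 and 69.6. In homologous recombination 19 of 23 genes were expressed at lower levels, with RBBP8, which trims ends, highest at 21.9 ± 2.36. MRE11, a nuclease of the same step, was at 5.33 ± 0.420 and BRCA2, a mediator of strand exchange, at 4.47 ± 0.627. The Fanconi list was complete with 14 of 14, led by the ubiquitin enzyme UBE2T (27.2, 33.9 and 33.4). Base excision and single-strand repair had 26 of 26, with APEX1, the abasic site nuclease, at 115 ± 4.96, PARP1 at 72.2 ± 1.13 and FEN1 at 63.0 ± 1.74. Nucleotide excision had 14 of 15, with RAD23B at 102 ± 1.79. MGMT, which reverses alkylated guanine, was at 2.74 ± 0.275. Median levels in library 1 lay below the mean of the others for mismatch repair (log2 -0.14), homologous recombination (-0.13) and end joining (-0.13), and above it for base excision (0.06). The part of this shift in differences between pathways was not tested.

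Damage signalling genes were expressed in 29 of 30 cases. CDKN1A, the cell cycle inhibitor p21, stood at 157, 154 and 142 FPKM in cells labelled untreated. MDM2, a ubiquitin ligase, was at 20.1 ± 1.60 and CDKN2A, a locus of cell cycle inhibitors, at 16.3 ± 2.00. TP63, a factor of stratified epithelia, was the exception at 4, 4 and 2 reads.

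Irinotecan acts through topoisomerase I. TOP1 (ENSG00000198900, chromosome 20, 41028818 to 41124487) measured 101, 105 and 112 FPKM and took 92.7% ± 1.34 of the summed level with its mitochondrial paralog TOP1MT. TOP2A was at 54.6 ± 5.43 and TOP2B at 31.9 ± 2.36. Carboxylesterases turn irinotecan into its active form: CES2 was at 8.21 ± 0.252 and CES3 at 1.95 ± 0.186, while CES1 had 0 reads. The cholinesterase BCHE also had 0 reads. UGT1A1, which inactivates the active form of irinotecan, had 0 reads as well, with 49.9% of its exons shared with other genes. The exporters ABCC1 and ABCC2 were at 23.4 ± 0.572 and 21.7 ± 1.73. SLFN11, a factor that blocks stalled replication forks (ENSG00000172716, chromosome 17, 35350305 to 35373701), had 0 reads in each library. None of its exonic bases is shared, and 3 reads would be at most 0.0346 FPKM. Of the 21 genes of this list 11 were expressed.

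In the DNA sensing list CGAS, IFI16 and 4 further sensors were at or near the read limit. STING, TBK1, IRF3 and some members of the list that bind DNA were expressed. Of 30 genes 21 were expressed, against the background of 55.6%, and 7 were undetected, against 25.9%. CGAS (ENSG00000164430, chromosome 6, 73413515 to 73452276) had 3, 0 and 2 reads, or 0.0499, 0 and 0.0326 FPKM, with 4.33% of its exons shared. IFI16, a nuclear DNA sensor, had 5, 2 and 3 reads. AIM2, ZBP1, MNDA and PYHIN1, sensors of the same kind or of related families, had 0 reads and 3 reads would be at most 0.103 FPKM for AIM2 and 0.0383 for ZBP1. All 3 libraries of each of these genes lay at or near the read limit. The parts downstream were present. TMEM173 (STING; ENSG00000184584, chromosome 5, 139475534 to 139482935) measured 4.50, 4.16 and 4.05 FPKM, TBK1 12.9, 16.8 and 16.0, and IRF3 14.2 ± 0.412. Other members that bind DNA, some of them described as sensors, were high: besides Ku and PRKDC, BANF1, which coats cytosolic DNA, measured 96.0, 90.2 and 86.5 FPKM, and the helicase DDX41 23.9, 20.8 and 20.1. TREX1, the nuclease that removes cytosolic DNA, is listed at 0 in all libraries, and 100% of its exonic bases are shared, as in the 312 genes of which 0 were expressed. DNASE1L3 had 0 reads.

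**Figure D5:**
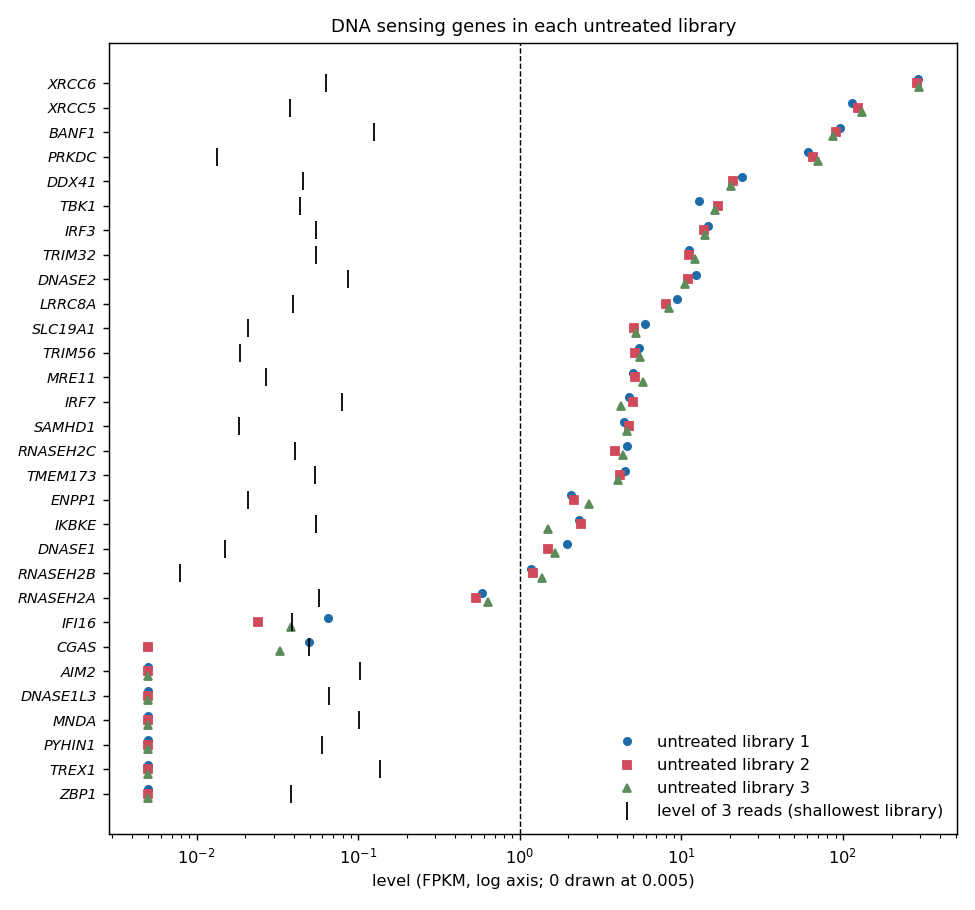
Level in FPKM (log axis, 0 drawn at 0.005) of the 30 DNA sensing genes in each untreated library, with a black bar at the level of 3 reads and a dashed line at 1 FPKM. TMEM173, TBK1 and IRF3 lie at 4.05 FPKM or above in every library, whereas CGAS and IFI16 lie around their 3-read bars and 6 genes are at 0.

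RNA sensing was more complete, with 15 of 18 genes expressed (83.3%, against 55.6% of protein-coding genes) and a median of 9.53 FPKM. ADAR, which edits double-stranded RNA, was highest at 49.1 to 52.1 FPKM. MAVS, the adaptor of RIG-I-like receptors, was at 31.4 ± 0.820 and TRIM25, which activates RIG-I, at 22.6 ± 0.116. Of the 24 genes of the Toll-like receptor list 10 were expressed (41.7%, against 55.6%) and 7 undetected, beside 25.9% of all protein-coding genes. IRAK1, a kinase behind the receptors, was first at 25.6 ± 1.62, and of the receptors TLR6 (1.57 ± 0.144) alone passed 1 FPKM. TLR4, TLR7, TLR8 and TLR9 had 0 reads, of which TLR9 has 86.3% of its exons shared. In the inflammasome list 11 of 25 were expressed (44.0%, against 55.6%). IL18 (13.6, 12.4 and 16.5 FPKM), NLRP2 (13.6 ± 0.455) and GSDMD (12.1 ± 0.511) were present, while CASP1, the protease that matures IL18, had 0 reads and NLRP3 0, 1 and 0.

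Interferons themselves were near the limit. Type III interferons gave the 3 expressed members of 21: IFNL1 at 1.37, 1.32 and 1.66 FPKM, IFNL2 at 0.656, 1.37 and 1.56 and IFNL3 at 2.24, 0.736 and 0.879. Without library 1, the mean of IFNL3 was 0.808 in place of 1.28 and 2 members were expressed. These values rest on 7 to 25 reads each, and the sequences of IFNL2 and IFNL3 are so alike that the split of reads between them is uncertain. IFNB1 had 1 read in each library, and 14 members had 0 in all. Of 25 interferon signalling and target genes 16 were expressed (64.0%, against 55.6% of protein-coding genes). ISG15, a ubiquitin-like modifier, measured 185, 160 and 132 FPKM, highest in library 1, and IFITM3, which blocks viral entry, 121, 109 and 104. MX1 and MX2, antiviral GTPases among the usual interferon targets, were low at 15, 11 and 14 reads and at 2 reads in each library. Antigen presentation had 15 of 26 genes expressed (57.7%), close to the background of 55.6%. HLA-C stood at 112, 102 and 94.3 FPKM and B2M, the light chain of class I molecules, at 54.5 ± 1.91. HLA-G and HLA-DQA1 had 0 reads.

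Glycolysis had 18 of 24 genes expressed, 6 of them at 100 FPKM or above. ENO1 was at 448 ± 8.22 and took 96.0% ± 0.282 of the enolase level, and LDHA was at 145 ± 5.38 with 93.4% ± 1.27 of the lactate dehydrogenase level. ALDOA, usually the main aldolase, was at 1.66, 1.63 and 1.07 FPKM, below ALDOC at 13.2 ± 0.695. ALDOA shares 53.5% of its exonic bases and measured 3.12 FPKM per kilobase of unshared exon, and the aldolase shares are not read further. The glucose transporter SLC2A1 took 94.2% ± 0.606 of the summed level of SLC2A1 to SLC2A5.

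Some paralogs had levels of the same size. HK1 took 55.2% ± 1.33 and HK2 43.6% ± 1.48 of the hexokinase level. CDK4 and CDK6, partners of cyclin D, took 59.9% ± 4.63 and 40.1% ± 4.63, but 43.2% of the exonic bases of CDK4 are shared, and per kilobase of unshared exon CDK4 measured 60.4 FPKM and CDK6 23.1. TUBB and TUBB4B, beta-tubulins, took 48.9% ± 1.36 and 41.8% ± 0.985. HSP90AB1 exceeded HSP90AA1 in all 3 libraries with 64.9% ± 1.10, and ACTG1 exceeded ACTB with 65.8% ± 0.508. Copies this alike share stretches of sequence, so the shares depend on how the authors counted reads that match both.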

How the data were processed

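The authors deposited 1 table of FPKM values for 59172 features in 12 libraries, of which only the columns of the 3 untreated libraries were read. Alignment and counting tools in the submitters' processing notes are featureCounts 1.5.0-p3, HISAT2 2.0.5, DESeq2 1.16.1 and StringTie 1.3.3b, with hg19 as the build. The 58735 features with an Ensembl identifier carry the positions and exonic lengths of GENCODE 29, which is on GRCh38, so coordinates are GRCh38. The other 437 were named by the submitters. The deposited gene length, in bases and another value than a level, was used to recover reads: in each library FPKM times length, divided by the product of a single read, gave whole numbers for 100% of values above 0, within 0.1 of a read. This recovery was tested on simulated data.

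No test was run, since a single group was described. A gene was called expressed at a mean of 1 FPKM or above and undetected at 3 reads or fewer in each library. Exon sharing was computed from GENCODE 29. Alternatives were thresholds of 0.5 and 2 FPKM, rescaled values (TPM), read minimums and leaving out each library. Levels per unshared exon (at least 100 bases) and a limit of 50% shared bases were added after seeing the data. The gene lists and the members were chosen with earlier results of these data known. Genes were named as the 20 highest nuclear protein-coding genes, the 5 highest other genes of at least 200 bases, the 5 highest and the undetected members of each list, the paralogs, the 10 most variable features and a fixed set on the study's topic. Named outside this rule, after their values were seen, were ASCL2, BMI1, CES3, CHGA, DMC1, ERCC5, FTH1, HOXB4, HOXD8, IFI16, IFNAR2, IRF3, MSH3, MSI1, MX1, NHEJ1, OVOL2, RAD50, RAD51B, TBK1, TLR6 and TP63, and the transcription factors and submitter-named features of the closing section. Python 3.11.15 was used. Some genes that meet the rule are withheld for evaluation and not reported here.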

Additional observations from a re-analysis of the deposited data

Results flagged for a closer look

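The table holds 437 features that the submitters named themselves and that no list above uses. Of these, 250 had more than 3 reads in each untreated library, above the read limit used here, and 193 had a mean of at least 1 FPKM. They took 0.218% to 0.223% of reads. The highest (chromosome 6, 144922045 to 144990883, plus strand) measured 92.7, 98.1 and 96.2 FPKM, and the deposited description gives similarity to a Gag-Pol polyprotein. The next lies on the scaffold KI270733.1 and measured 61.9, 40.3 and 36.8 FPKM, highest in library 1. Its deposited description is putative uncharacterized protein ART2. The deposited description names LINE-1 for 25 of the features and an endogenous retrovirus for 8.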

How the results depend on the processing

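Levels rest on 3 libraries of 1 group. A gene at 3 reads or fewer in each library may be absent or expressed at a low level, and this was not decided. The count of expressed protein-coding genes stayed within 1.5 times of 11101 under thresholds of 0.5 and 2 FPKM, TPM, each left-out library, unshared exon length and the limit to genes with under 50% shared bases, as did the detected features under other read minimums. The 20 highest genes kept 12 members when reads were not divided by length. Of all 19951 protein-coding genes, 11988 were expressed at 0.5 FPKM, 9861 at 2 FPKM and 12598 at TPM of at least 1. At 0.5 FPKM the expressed members were 13 for intestinal factors, 4 for enterocyte genes and 5 for secretory genes. At 2 FPKM they were 1 for enterocyte genes, 7 for the inflammasome list and 0 for interferon ligands. With TPM of at least 1 they were 13 for intestinal factors, 4 for enterocyte genes, 6 for secretory genes and 5 for other cell types. TPM rescales all FPKM values of a library by the same factor, so TPM of at least 1 acts as a lower FPKM threshold. Mean TPM was 1.02 for MAGEA6 at 0.308 FPKM and 0.931 for IFNAR2 at 0.282 FPKM. Why these lists moved more than the others was not tested. The other lists, 30, 30 and 29 of 33 under these settings, stayed within 1.5 times. All 33 did so without replicate 1, 2 or 3 and per unshared exon. This band is wide: HOX genes went from 22 to 15 expressed at 2 FPKM and counted as within it. No paired analysis was possible because a single group was described and no result comes from a test.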

Other observations

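Cancer-testis and fetal genes, normally limited to the germ line or the fetus, were expressed in 4 of 26 cases, beside the background of 55.6%. MAGEB2 measured 112, 105 and 106 FPKM, MAGEA3 55.2, 47.5 and 48.7, IGF2BP3 17.2, 18.3 and 19.3 and PRAME 16.0, 17.6 and 17.1. Another 17 were undetected, beside 25.9% of all protein-coding genes, among them MAGEA1, MAGEA4, MAGEC1, CTAG1B and DAZL with 0 reads. MAGEA3 and MAGEA6 are near copies, and MAGEA6 had 4, 10 and 12 reads.

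The deposited table assigns 1548 protein-coding genes to transcription factor families, of which 882 (57.0%) were expressed. Families differed: 21 of 22 MYB genes, 37 of 44 ZBTB genes and 35 of 48 bZIP genes were expressed, against 70 of 191 homeobox genes, 42 of 101 bHLH genes, 19 of 47 forkhead genes and 1 of 16 POU genes. After HMGA1 the highest was YBX1, a cold shock domain protein, at 576, 444 and 426 FPKM. ATF4, a stress response factor, was at 155 FPKM and ID1, an inhibitor of bHLH factors, at 99.5. The homeobox gene with the highest level was MSX1 at 56.5, 53.3 and 49.4 FPKM, above every HOX gene.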
